A study of Mus musculus with 48 samples.

Results

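The 10 genes described here encode ligands, antagonists and receptors of the IL-1 and IL-36 cytokine systems of the mouse, and were taken by symbol from a count matrix of 24996 genes. They are the IL-1 agonists Il1a and Il1b, the IL-1 receptor antagonist Il1rn, the signalling receptor Il1r1, the decoy receptor Il1r2, the IL-36 agonists Il1f6 (IL-36 alpha), Il1f8 (IL-36 beta) and Il1f9 (IL-36 gamma), the IL-36 receptor antagonist Il1f5, and the alarmin Il33. All 10 were found in the matrix, and all 10 passed the filter on low counts that left 18044 genes for testing. RNA of suspended epidermal cells was sequenced from aged mice, 80 to 90 weeks old, and from adult mice, 18 to 25 weeks old, killed at Zeitgeber time (ZT, hours after lights on) 0, 4, 8, 12, 16 or 20. There were 4 libraries for each age at each time, 12 groups in all, so that 24 aged libraries were set against 24 adult libraries. No treatment or engineered allele is named for any group. The labels used here give neither the strain nor the sex of the mice, nor whether the 4 libraries of a group come from separate animals. The p-values therefore measure the spread between these libraries, which may be technical in part.

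IL-1 alpha and IL-1 beta bind the receptor encoded by Il1r1, which recruits the accessory chain encoded by Il1rap and signals through MyD88 and IRAK kinases to NF-kB. The product of Il1rn occupies that receptor without recruiting the accessory chain, and the product of Il1r2 binds IL-1 but cannot signal. The IL-36 cytokines use a receptor encoded by Il1rl2 with the same accessory chain, are made mainly by epithelial cells, and are opposed by the product of Il1f5. In skin, loss of either antagonist is known from human disease to cause pustular inflammation. IL-33 is stored in the nuclei of barrier cells, keratinocytes among them, and acts on immune cells through the receptor encoded by Il1rl1 once it is released.

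Most of the family lies in clusters. In the GRCm38 assembly Il1f8 (chr2:24153172-24160103), Il1f9 (chr2:24186476-24193567), Il1f6 (chr2:24215417-24225701), Il1f5 (chr2:24276954-24282432) and Il1rn (chr2:24336860-24351491) follow each other on the plus strand of chromosome 2. Il1a (chr2:129299609-129310186) and Il1b (chr2:129364569-129371164) lie on the minus strand of the same chromosome, far from that cluster. The receptor genes Il1r2 (chr1:40084692-40125230) and Il1r1 (chr1:40222480-40316201) are neighbours on chromosome 1, and Il33 (chr19:29925113-29960718) stands alone on chromosome 19. Annotated transcripts on the other strand overlap Il1a, Il1b and Il1r2, and whether counting used the strand is not given in the sources, so reads of these pairs cannot be told apart. Annotated genes on the same strand also overlap the spans of Il1r1 and Il1r2, where strand would not separate shared reads. Whether their exons coincide was not checked.

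The study's title names the clock factor BMAL1, which binds E-boxes, and YAP, which acts through TEAD factors. RefSeq promoter windows on GRCm38.p6 were matched for 9 of the 10 members, 14 windows in all, and not for Il1f6. The 250 bases before an annotated start are printed below, 5′ to 3′ on the gene's own strand, for the 4 members that passed the test for age and for Il1r2, the only member whose windows held the E-box. For those 4 members the start is the first base of the gene as given above. For Il1r2 it is an internal start, since the only window matched lies inside the annotated gene, downstream of its first base. Capitals mark matches to 5 motifs, the first 4 searched on both strands. For BMAL1 and CLOCK the letters were CACGTG, the E-box. For the clock factors ROR and REV-ERB they were AGGTCA. For TEAD factors they were GGAATG, and for AP-1 factors TGANTCA. The TATA box, TATAAA, was searched on the gene's strand only. The windows are chr2:24336610-24336859 for Il1rn, chr2:24276704-24276953 for Il1f5, chr2:24152922-24153171 for Il1f8, chr19:29924863-29925112 for Il33 and chr1:40085843-40086092 for Il1r2, all on the plus strand.
Il1rn: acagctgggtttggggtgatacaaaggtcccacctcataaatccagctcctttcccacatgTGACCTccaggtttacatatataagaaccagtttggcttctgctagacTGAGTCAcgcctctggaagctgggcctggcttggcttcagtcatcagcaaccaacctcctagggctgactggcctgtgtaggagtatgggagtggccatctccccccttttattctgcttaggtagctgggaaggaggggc
Il1f5: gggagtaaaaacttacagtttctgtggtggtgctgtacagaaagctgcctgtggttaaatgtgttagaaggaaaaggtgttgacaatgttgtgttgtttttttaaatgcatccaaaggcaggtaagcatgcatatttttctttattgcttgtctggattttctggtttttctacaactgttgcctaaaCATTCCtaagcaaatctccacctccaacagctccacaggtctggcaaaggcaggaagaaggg
Il1f8: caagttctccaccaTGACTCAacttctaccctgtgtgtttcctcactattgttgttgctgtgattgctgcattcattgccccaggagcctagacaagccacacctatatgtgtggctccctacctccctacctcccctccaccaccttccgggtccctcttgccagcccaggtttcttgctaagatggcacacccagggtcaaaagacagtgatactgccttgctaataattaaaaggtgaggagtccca
Il33: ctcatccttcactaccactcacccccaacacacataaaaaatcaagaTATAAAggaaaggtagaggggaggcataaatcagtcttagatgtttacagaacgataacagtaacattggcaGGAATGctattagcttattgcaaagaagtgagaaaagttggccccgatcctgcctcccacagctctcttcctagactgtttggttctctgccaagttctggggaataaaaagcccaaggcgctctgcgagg
Il1r2: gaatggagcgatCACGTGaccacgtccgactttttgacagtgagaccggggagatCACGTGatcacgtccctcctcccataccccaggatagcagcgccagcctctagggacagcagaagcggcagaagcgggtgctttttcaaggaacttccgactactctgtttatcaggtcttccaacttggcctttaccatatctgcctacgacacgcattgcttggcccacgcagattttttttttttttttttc

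Positions are counted from the start that follows each window. Il1rn carried TGACCT, the reverse complement of the ROR element, at -189 and an AP-1 match, TGAGTCA, at -141. Il1f5 carried CATTCC, the reverse complement of the TEAD motif, at -62, and Il1f8 carried the AP-1 match TGACTCA at -236. Il33 carried TATAAA at -203 and the TEAD motif at -131, and Il1r2 carried CACGTG at -238 and at -195 from its internal start. Further windows of Il1rn, Il1f5 and Il33, at other annotated starts, are not printed. Among these, a window of Il33 carried TATAAA at -29 and CATTCC at -107, and a window of Il1rn carried the TEAD motif at -24. Over all members, the E-box was found in 1 of the 14 windows, the ROR element in 2, the TEAD motif in 5, the AP-1 motif in 3 and TATAAA in 4. Among all 32841 windows of this length the shares were 6.02% for the E-box, 14.0% for the ROR element, 12.6% for the TEAD motif, 6.75% for AP-1 and 7.59% for TATAAA. No match overlapped another, and a match is a string of letters, not a measured binding site.

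The members differed widely in level. Expressed as CPM (library-size-scaled counts) per kilobase of exon, so that genes of different length can be set side by side, the order of the medians over 48 libraries was Il1r2, Il33, Il1rn, Il1r1, Il1f9, Il1f5, Il1a, Il1b, Il1f8 and Il1f6. Il1r2 had a median of 30.3 CPM per kb (13.4 to 53.2) and Il33 of 23.4 CPM per kb (5.26 to 49.6). Il1rn followed at 11.1 CPM per kb (5.73 to 17.8). Il1r1, Il1f9 and Il1f5 lay together at 6.38, 6.11 and 6.07 CPM per kb. The IL-1 and IL-36 agonists other than Il1f9 were at the low end, with 0.916 CPM per kb for Il1a, 0.396 for Il1b, 0.316 for Il1f8 and 0.161 for Il1f6. By this measure the most abundant transcripts of the family in these suspensions were thus those of the decoy receptor, IL-33 and the IL-1 receptor antagonist. The length was that of all annotated exons of a gene merged, 5535 bases for Il1rn and 1908 for Il1r2, and the order depends on it. In CPM not divided by length these genes also led, with Il1r2 last of them. The medians in aged and adult libraries were 76.4 and 60.1 CPM for Il33, 59.8 and 69.0 for Il1rn, and 57.9 and 57.8 for Il1r2.

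**Figure D1:**
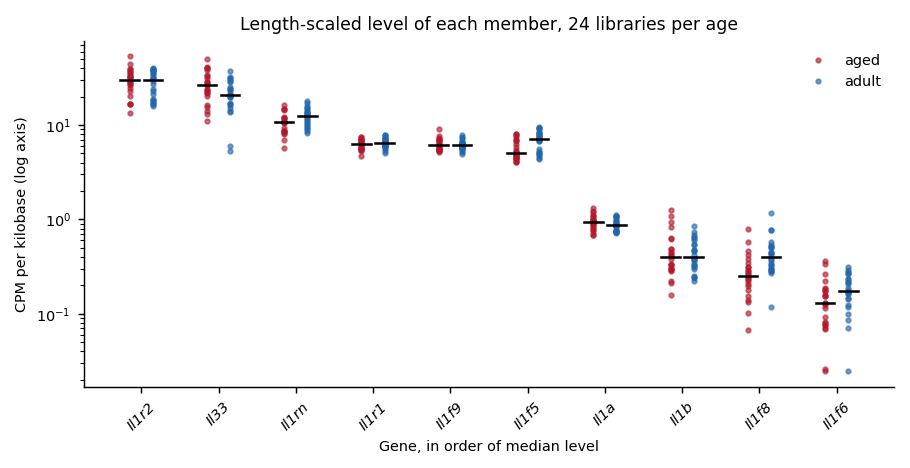
Level of each member in CPM per kilobase of exon on a log axis, in order of the median over all 48 libraries, with 1 point per library, aged (red) left of adult (blue), and a bar at the median of each age. The median ran from 30.3 for Il1r2 to 0.161 for Il1f6, and the gap between Il1f5 and Il1a was the only one between neighbours that no library crossed.

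Within single libraries most of the order per kilobase held. Il1f5 was above Il1a in all 48 libraries, Il1rn above Il1r1 in 47, Il33 above Il1rn in 46, Il1a above Il1b in 45, Il1f8 above Il1f6 in 44 and Il1r2 above Il33 in 36. Il1r1 was above Il1f9 in 25 libraries and Il1f9 above Il1f5 in 26, so these neighbours did not differ beyond their spread. Il1f9 exceeded Il1f5 in 17 of 24 aged libraries and in 9 of 24 adult libraries. Il1b exceeded Il1f8 in 18 aged and 12 adult libraries. Il1f6 rested on 1 to 16 counts in aged libraries and 1 to 12 in adult libraries, with 11 libraries at or under 3 counts, and its values are correspondingly imprecise.

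Age was compared first over all 6 times, each weighted equally. The antagonist genes Il1rn and Il1f5 and the agonist gene Il1f8 were lower in aged epidermis, and Il33 was higher. These 4 of 10 members (1 higher, 3 lower) were called by edgeR's quasi-likelihood test at an adjusted p under 0.05, where 33.1% of all genes tested were called, 17.0% higher and 16.2% lower in aged. The share of members called is thus near that of all genes. Their median log2 fold change, aged over adult, was -0.02 for the 10 members and 0.01 for all genes. Because these are bulk libraries, fewer cells of a type and less RNA per cell cannot be told apart.

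Il1rn, which encodes the IL-1 receptor antagonist, had 31.7, 59.8 and 89.9 CPM (lowest, median and highest) in aged libraries, against 45.9, 69.0 and 98.5 CPM in adult libraries. The ranges overlapped, with 20 of 24 aged libraries below the adult median. The log2 fold change was -0.22 (SE 0.07; adjusted p = 0.0112, edgeR). It was lower in aged at 4 of 6 times, and the fold change was -0.12 (adjusted p = 0.214, edgeR) without the ZT20 libraries.

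Il1f5, which encodes the IL-36 receptor antagonist, had 18.1, 22.5 and 36.2 CPM in aged libraries, against 19.7, 32.3 and 43.2 CPM in adult libraries. Its mean was lower in aged at all 6 times, and 20 of 24 aged libraries lay below the adult median. The log2 fold change was -0.33 (SE 0.09; adjusted p = 0.00752, edgeR), and it was -0.22 (adjusted p = 0.172, edgeR) without the ZT20 libraries.

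Il1f8, which encodes the agonist IL-36 beta, had the largest age difference among the members. It had 0.0813, 0.309 and 0.961 CPM in aged libraries, against 0.145, 0.487 and 1.42 CPM in adult libraries. Those values rest on 4 to 42 counts in aged libraries and 7 to 66 counts in adult libraries. Its mean was lower in aged at all 6 times, with a fold change of -0.70 on the log2 scale (SE 0.18; adjusted p = 0.00349, edgeR), and 20 of 24 aged libraries lay below the adult median. It was the only member still called without the ZT20 libraries, at -0.60 (adjusted p = 0.0366, edgeR).

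Il33 had 31.9, 76.4 and 143 CPM in aged libraries, against 15.2, 60.1 and 107 CPM in adult libraries. Its mean was higher in aged at 5 of 6 times, ZT16 being the exception, and 18 of 24 aged libraries lay above the adult median. The log2 fold change was 0.33 (SE 0.12; adjusted p = 0.0252, edgeR). It was 0.34 (adjusted p = 0.0736, edgeR) without the ZT20 libraries and 0.23 (adjusted p = 0.0627, edgeR) without the adult ZT12 replicates 3 and 4, which held the least Il33 of all 48 libraries.

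The other 6 members did not pass the test for age. Il1r1, the signalling receptor, gave a value of -0.06 (SE 0.03; adjusted p = 0.0869, edgeR), with 30.2, 39.6 and 47.5 CPM in aged libraries and 32.4, 41.3 and 50 CPM in adult libraries. It was also the least variable member, with a coefficient of variation within groups of 6.03%, against 45.7% for Il1f6. Il1r2 had 25.7, 57.9 and 102 CPM in aged libraries, against 30.3, 57.8 and 77.1 CPM in adult libraries (log2 fold change 0.07, SE 0.11). The IL-1 agonists did not separate the ages either. Il1a had 1.35, 1.86 and 2.601 CPM in aged libraries and 1.42, 1.74 and 2.19 CPM in adult libraries (0.09, SE 0.07). Il1b had 0.302, 0.756 and 2.37 CPM in aged libraries and 0.420, 0.766 and 1.63 CPM in adult libraries (0.08, SE 0.18). Il1f9, the most abundant IL-36 agonist transcript, had 8.54, 10.1 and 14.96 CPM in aged libraries and 8.20, 10.1 and 13.1 CPM in adult libraries (0.03, SE 0.05). Il1f6 had 0.0217, 0.114 and 0.323 CPM in aged libraries, against 0.0220, 0.153 and 0.277 CPM in adult libraries (-0.35, SE 0.21), with 137 counts in all aged libraries and 175 in all adult libraries.

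**Figure D2:**
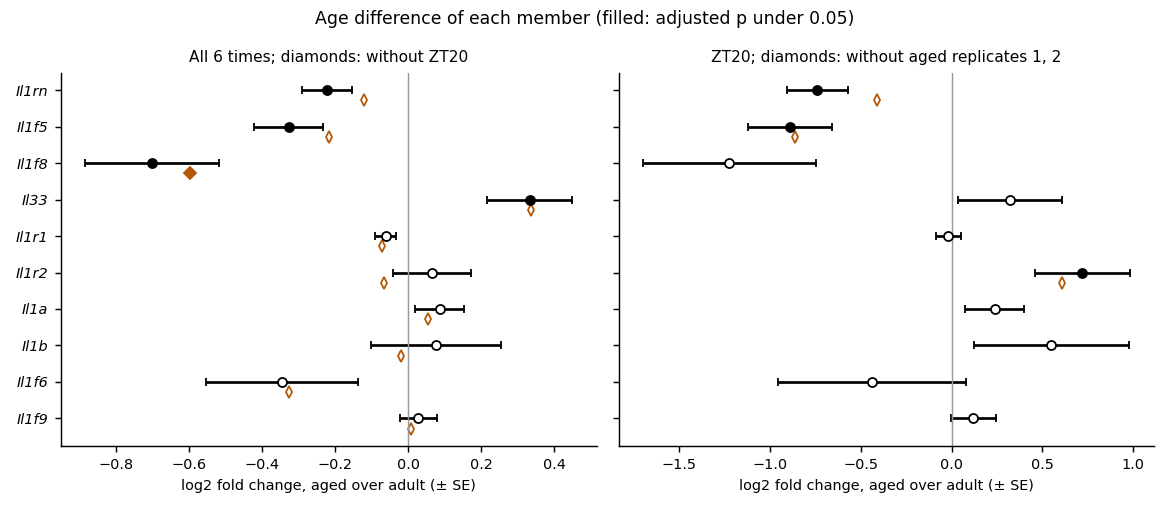
Log2 fold change of each member, aged over adult, with bars of 1 SE from edgeR, over all 6 times (left) and at ZT20 (right). Filled symbols have an adjusted p under 0.05. Diamonds give the value without the ZT20 libraries (left) or, for the members called at ZT20, without aged ZT20 replicates 1 and 2 (right). Il1f8 at -0.60 is the only filled diamond.

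The antagonists were also set against their agonists within each library, per merged exon length and without a test. The size of each ratio depends on these lengths. The ratio of Il1rn to the sum of Il1a and Il1b had a median of 8.06 in aged libraries (3.99 to 11.6) and 9.13 in adult libraries (5.23 to 14.4). The ratio of Il1f5 to the sum of Il1f6, Il1f8 and Il1f9 had a median of 0.806 in aged libraries (0.573 to 1.29) and 1.05 in adult libraries (0.652 to 1.48). Most of that sum was Il1f9, with a median of 6.11 CPM per kb against 0.316 for Il1f8 and 0.161 for Il1f6. The IL-36 ratio is therefore mainly that of Il1f5 to Il1f9, which was not called for age, and hardly reflects Il1f8. At ZT20 the medians were 5.26 in aged and 10.7 in adult libraries for the IL-1 ratio, and 0.649 in aged and 1.22 in adult libraries for the IL-36 ratio. The IL-1 ratio also had a lower median in aged libraries at ZT4 (9.65 in aged, 11.7 in adult), ZT8 (7.42 in aged, 7.69 in adult), ZT12 (6.54 in aged, 6.76 in adult) and ZT16 (8.05 in aged, 9.11 in adult). The IL-36 ratio did so at ZT4 (0.916 in aged, 1.04 in adult), ZT8 (0.849 in aged, 1.00 in adult), ZT12 (0.827 in aged, 1.07 in adult) and ZT16 (0.835 in aged, 0.989 in adult). At ZT0 the medians were 9.77 in aged and 9.59 in adult libraries for the IL-1 ratio, and 0.911 in aged and 0.856 in adult libraries for the IL-36 ratio. The median of either ratio was thus lower in aged libraries at 5 of 6 times, by most at ZT20, and slightly higher in aged at ZT0. The ratio of the decoy receptor Il1r2 to the signalling receptor Il1r1 had a median of 4.43 in aged libraries (2.55 to 9.85) and 4.20 in adult libraries (2.57 to 6.63). It was 2.95 in aged and 5.13 in adult libraries at ZT16, and 5.45 in aged and 3.03 in adult libraries at ZT20, opposite orders at times 4 h apart.

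At single times most calls within the family were made at ZT20, where 3 of 10 members were called, 1 higher and 2 lower in aged, against 20.0% of all genes (9.54% higher and 10.5% lower). Il1rn had 38.5, 31.7, 59.5 and 60.0 CPM in the 4 aged ZT20 libraries, against 69.7, 84.9, 84.2 and 77.7 CPM in the 4 adult ones. Every aged library lay below every adult library (log2 fold change -0.74, SE 0.17; adjusted p = 0.00259, edgeR). Aged replicates 1 and 2 were the lowest, and without them the fold change was -0.41 (adjusted p = 0.180, edgeR).

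Il1f5 had 18.1, 18.9, 18.2 and 20.3 CPM in aged ZT20 libraries, against 37.1, 38.3, 30.1 and 34.3 CPM in adult ones. The groups did not overlap, and the aged values were the tightest of any Il1f5 group (log2 fold change -0.89, SE 0.23; adjusted p = 0.00761, edgeR). Without aged replicates 1 and 2 it was -0.86 (adjusted p = 0.105, edgeR).

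Il1r2 had 75.6, 74.7, 67.6 and 62.1 CPM in aged ZT20 libraries, against 33.5, 34.6, 55.7 and 46.1 CPM in adult ones. The groups did not overlap, and the decoy receptor was higher in aged by 0.72 on the log2 scale (SE 0.26; adjusted p = 0.0467, edgeR). That call was lost without any 1 of 10 libraries, with an adjusted p of up to 0.142 (edgeR), and with aged ZT20 replicates 1 and 2 both left out the fold change was 0.61 (adjusted p = 0.255, edgeR). The libraries were aged ZT0 replicate 1, aged ZT4 replicate 2, aged ZT20 replicates 1, 2 and 3, adult ZT0 replicate 4, adult ZT4 replicate 2 and adult ZT20 replicates 1, 2 and 4.

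Il1f8 had 0.253, 0.124, 0.287 and 0.0813 CPM in aged ZT20 libraries, against 0.350, 0.353, 0.5997 and 0.448 CPM in adult ones. These groups did not overlap, yet the log2 fold change of -1.22 (SE 0.47) missed the threshold (adjusted p = 0.0614, edgeR). Non-overlap of 4 against 4 libraries at ZT20 was found for 4 members, Il1rn, Il1r2, Il1f5 and Il1f8, and for 26.0% of all genes.

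At ZT16, 1 of 10 members was called, where 1.97% of all genes were. Il1r1 had 35.8, 35.7, 30.2 and 38.9 CPM in aged ZT16 libraries, against 41.1, 38.2, 45.1 and 46.2 CPM in adult ones. Aged replicate 4 lay above adult replicate 2, so the groups overlapped, and the log2 fold change was -0.28 (SE 0.07; adjusted p = 0.0227, edgeR). The call was lost without aged ZT16 replicate 2 or 3 or adult ZT16 replicate 3 or 4, with values between -0.33 and -0.21 when each library was left out in turn and an adjusted p of up to 0.161 (edgeR). Il1r2, which did not pass the test at ZT16, had 31.5, 31.8, 25.7 and 62.7 CPM in aged ZT16 libraries against 71.2, 74.6, 59.8 and 62.2 CPM in adult ones (log2 fold change -0.82, SE 0.26; adjusted p = 0.0822, edgeR). DESeq2 called it at that time together with Il1r1.

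No member was called by edgeR at ZT0, ZT4, ZT8 or ZT12, where 4.46%, 0.632%, 2.19% and 1.10% of all genes were, and DESeq2 and limma called none there either. At an unadjusted p under 0.05 there were 0 members at ZT0 and 1 each at ZT4 (Il1rn), ZT8 (Il1f8) and ZT12 (Il33). Il33 at ZT0 had 143, 118, 112 and 116 CPM in aged libraries, against 84.1, 88.4, 91.5 and 93.8 CPM in adult ones. These groups did not overlap, as held for 19.6% of all genes at ZT0. Il33 at ZT12 had 69.1, 92.0, 44.9 and 47.4 CPM in aged libraries, against 57.9, 47.7, 15.2 and 17.1 CPM in adult ones (log2 fold change 0.87, SE 0.29; adjusted p = 0.134, edgeR). At ZT8, Il1f8 and Il1f6 did not overlap between the ages, as held for 9.90% of all genes. For Il1f6 the highest aged value was 0.155 CPM and the lowest adult value 0.157 CPM, on 7 counts each (adjusted p = 0.346, edgeR). Il1f8 had 0.274, 0.333, 0.319 and 0.170 CPM in aged ZT8 libraries, against 0.654, 0.347, 0.404 and 0.947 CPM in adult ones. At ZT4, ZT12 and ZT16 no member separated the ages completely, where 4.48%, 3.47% and 9.15% of all genes did.

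Whether the age difference itself varied over the 6 times was tested jointly. No member was called by edgeR or limma, where 0.283% of all genes were called by edgeR, and DESeq2 called Il1r2. At an unadjusted p under 0.05 stood 3 members, Il1r2 (adjusted p = 0.124), Il1rn (0.199) and Il1r1 (0.207), all from edgeR's test. The difference between ZT20 and the other times is therefore not established for any member by edgeR.

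**Figure D3:**
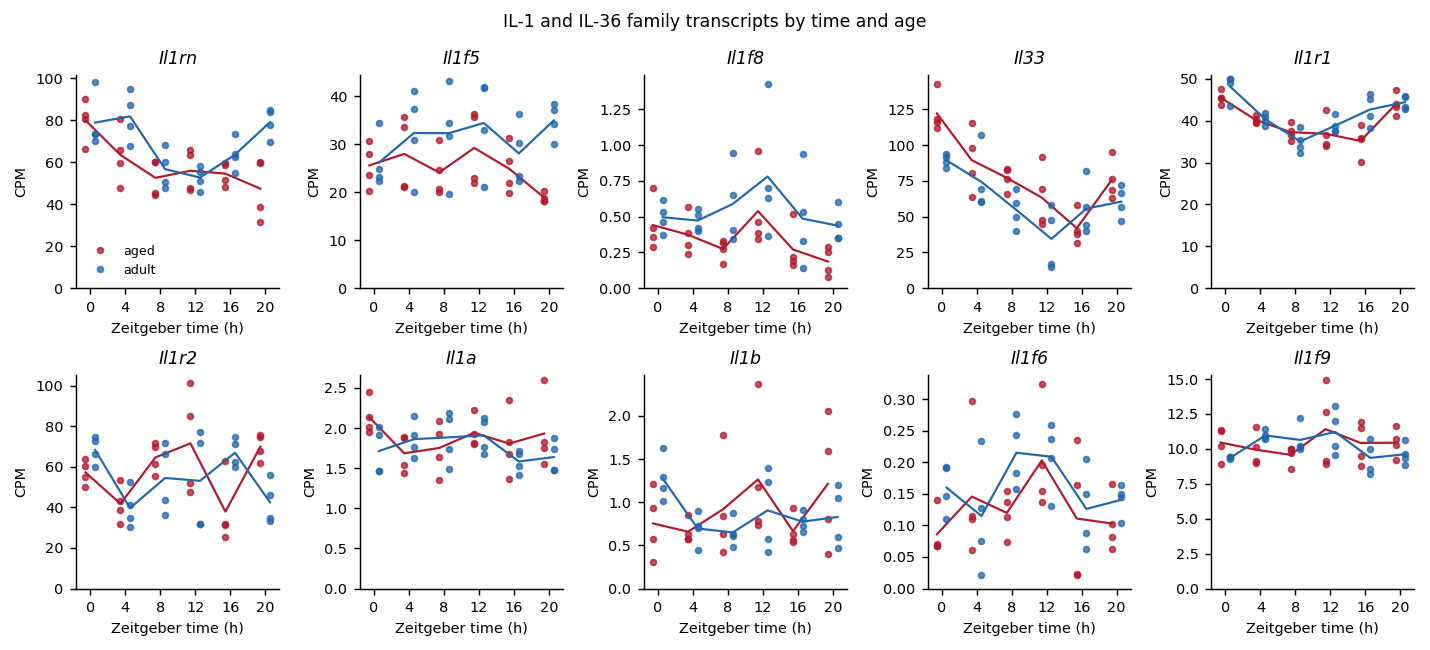
CPM of each member by Zeitgeber time (hours), with 1 point per library, aged in red and adult in blue, and lines through the means of the 4 libraries of each group. Il33 is highest at ZT0 in both ages, Il1f8 and Il1f5 means are lower in aged at every time, and Il1rn, Il1f5, Il1f8 and Il1r2 separate at ZT20.

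Rhythm over 24 h was fitted as a cosine in each age. In aged epidermis 2 of 10 members were called rhythmic, Il1r1 and Il33, where 5.87% of all genes were. In adult epidermis 3 were called, Il33, Il1r1 and Il1rn, where 14.6% of all genes were. Il1r1 and Il33 were called in both ages, which held for 3.58% of all genes. A test of whether the rhythms differed between the ages called no member and no gene (0.00%) with edgeR. It left no member at an unadjusted p under 0.05, and DESeq2 and limma called no member.

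Il33 averaged 122 ± 14.1 CPM at ZT0 and 42.0 ± 11.3 CPM at ZT16 in aged libraries (SD, n = 4 each), its highest and lowest group means, a ratio of 2.91. In adult libraries it averaged 89.5 ± 4.21 CPM at ZT0 and 34.5 ± 21.6 CPM at ZT12 (SD, n = 4 each), a ratio of 2.59. The libraries of the highest and the lowest time did not overlap in either age, but these times were picked by their means, which favours separation. Without a called rhythm, Il1a, Il1rn, Il1f5 and Il1f8 in aged and Il1b and Il1r2 in adult libraries separated in the same way. The fitted amplitude, on the log2 scale from mean to peak, was 0.59 in aged (peak 2.21 h after lights on; adjusted p = 0.00609, edgeR) and 0.55 in adult epidermis (peak 0.494 h; adjusted p = 0.00602, edgeR). The adult ZT12 group was wide, from 15.2 to 57.9 CPM, with replicates 3 and 4 the lowest. Without these 2 libraries the adult amplitude was 0.37 (adjusted p = 0.0401, edgeR).

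Il1r1 had the smallest amplitude and the lowest adjusted p of the members called. It averaged 45.5 ± 1.55 CPM at ZT0 and 35.1 ± 3.64 CPM at ZT16 in aged libraries, and 48.1 ± 3.05 CPM at ZT0 and 35.0 ± 2.67 CPM at ZT8 in adult libraries (SD, n = 4 each). The amplitude was 0.17 in aged (peak 23.7 h; adjusted p = 0.000812, edgeR) and 0.19 in adult epidermis (peak 21.4 h; adjusted p = 0.000130, edgeR).

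Il1rn averaged 80.0 ± 9.80 CPM at ZT0 and 47.4 ± 14.5 CPM at ZT20 in aged libraries, and 81.9 ± 11.9 CPM at ZT4 and 52.7 ± 5.44 CPM at ZT12 in adult libraries (SD, n = 4 each). Its amplitude was 0.22 in aged (adjusted p = 0.154, edgeR) and 0.34 in adult epidermis (peak 23.6 h; adjusted p = 0.00697, edgeR). Without aged ZT20 replicates 1 and 2 the aged amplitude was 0.26 (adjusted p = 0.0230, edgeR), and with all libraries the difference of rhythm between the ages did not pass the test (adjusted p = 0.835, edgeR). Il1r2 had amplitudes of 0.08 in aged (adjusted p = 0.934, edgeR) and 0.13 in adult epidermis (adjusted p = 0.789, edgeR). The part of the promoter motifs in the rhythm of any member was not tested. The other members had no called rhythm, with amplitudes between 0.07 and 0.44 in aged and between 0.08 and 0.32 in adult libraries.

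Variation between libraries of the same group showed which members moved together once age and time were removed. Deviations of log2 CPM from the group means were correlated over the 48 libraries for 45 pairs, with p-values from 100000 permutations of libraries within groups. After Benjamini-Hochberg adjustment 5 pairs were called, all positive. The share called among pairs of other genes was not computed, so this count is not a trait of the family. Il1rn and Il1f5 had r = 0.66 and rho = 0.72 (permutation p = 1e-05, the smallest these permutations can give; adjusted p = 0.00045), with r = 0.73 without the 2 libraries farthest from the median of Il1rn and 0.65 without the 2 farthest from that of Il1f5. The antagonists of IL-1 and IL-36 thus varied together from library to library. Il1r2 and Il33 had r = 0.71 and rho = 0.62 (permutation adjusted p = 0.00585), with r = 0.66 and 0.65 when the 2 libraries farthest on the first or on the second gene were left out. Il1f5 and Il1f8 had r = 0.57 and rho = 0.55 (permutation adjusted p = 0.00383), with r = 0.52 and 0.54 in the same way. Il1f5 and Il1f6 had r = 0.49 and rho = 0.52 (permutation adjusted p = 0.0272), with r = 0.57 without the 2 libraries farthest on Il1f5 and 0.41 without the 2 farthest on Il1f6, the gene with the fewest counts. Il1f5 was thus in 3 of the 5 pairs called, each time with a gene of its own cluster on chromosome 2. Other pairs of that cluster were not called, such as Il1f5 with Il1f9 (r = 0.30, permutation adjusted p = 0.234) and Il1rn with Il1f8 (r = 0.32, permutation adjusted p = 0.170). Il1f5, Il1rn, Il1f8 and Il1f6 (r = 0.49) were also each called with the differentiated keratinocyte markers described below. So was Il1a, which lies outside that cluster (r = 0.39, rho = 0.36, permutation adjusted p = 0.0326). The parts of location and of cell content were not tested. Il1b and Il1r2 had r = 0.46 and rho = 0.56 (permutation adjusted p = 0.0332), with r = 0.51 and 0.46 without the 2 libraries farthest on the first or on the second gene. This pair had r = 0.20 within aged and 0.84 within adult libraries. The number of pairs called ran from 3 to 8 when each library was left out in turn, and it was outside 1.5 times the full count without aged ZT4 replicate 4, aged ZT12 replicate 3, aged ZT16 replicate 3 or adult ZT4 replicate 1.

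The members also varied with markers of the cells in the suspension. Against the mean of each of 10 marker lists, 35 of 100 relations were called by the same permutation test, and between 30 and 41 when each library was left out. The share of all genes that would be called with these lists was not computed. The count therefore does not set the family apart from other genes. Values without 2 libraries leave out those farthest on the member. Il1f5 followed the differentiated keratinocyte list with r = 0.92 and rho = 0.92 (permutation adjusted p = 0.000167; r = 0.90 without 2 libraries). Il1f8 followed the same list with r = 0.67 and rho = 0.59 (permutation adjusted p = 0.0006; r = 0.60 without 2 libraries), as did Il1rn with r = 0.60 and rho = 0.68 (permutation adjusted p = 0.000333; r = 0.65 without 2 libraries). Il33 followed the basal keratinocyte list with r = 0.90 and rho = 0.84 (permutation adjusted p = 0.000167; r = 0.87 without 2 libraries). Il1r2 followed the basal list too, with r = 0.86 and rho = 0.80 (permutation adjusted p = 0.000167; r = 0.82 without 2 libraries). Il1r2 (r = -0.51) and Il33 (r = -0.52) were inversely related to the differentiated list. Genes of the outer layers and of the basal layer thus accompanied different members of the family.

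**Figure D4:**
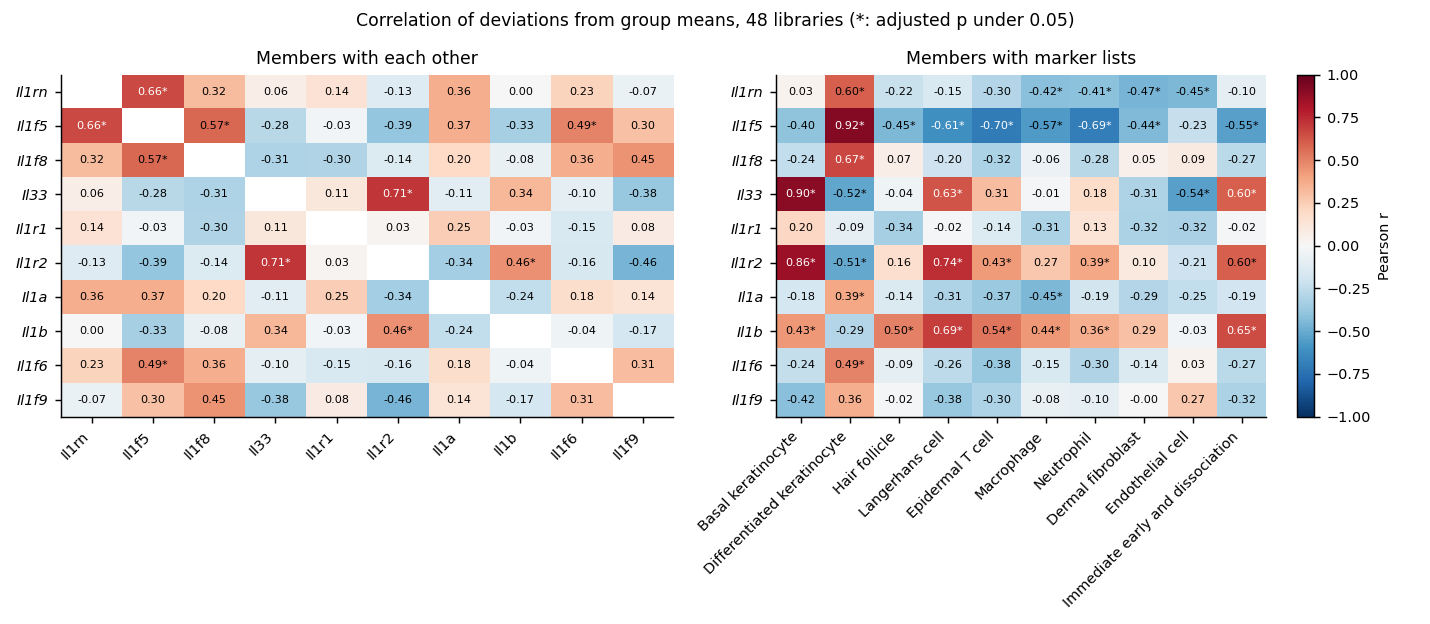
Pearson r of deviations of log2 CPM from group means over 48 libraries, for pairs of members (left) and for members against the mean of each marker list (right). Asterisks mark a permutation p adjusted within each panel under 0.05. Il1f5 stands at 0.92 with the differentiated keratinocyte list and Il33 at 0.90 with the basal keratinocyte list.

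Il1b followed the Langerhans cell list with r = 0.69 and rho = 0.77 (permutation adjusted p = 0.000167; r = 0.74 without 2 libraries) and the immediate early list with r = 0.65 and rho = 0.73 (permutation adjusted p = 0.00025; r = 0.66 without 2 libraries). Il1r2 followed the Langerhans cell list as well, with r = 0.74 and rho = 0.71 (permutation adjusted p = 0.000167; r = 0.70 without 2 libraries). It was also called with the immediate early (r = 0.60), epidermal T cell (0.43) and neutrophil (0.39) lists. Il33 was called with the Langerhans cell and immediate early lists too, at r = 0.63 for Langerhans cells and 0.60 for immediate early genes. Il1b was also called as positive with the epidermal T cell (r = 0.54), hair follicle (0.50), macrophage (0.44), basal (0.43) and neutrophil (0.36) lists, so its relation was not to a single cell type. Langerhans cells are the resident antigen-presenting cells of the epidermis and are known to make IL-1 beta. Il1f5 was inversely related to 7 lists, those of epidermal T cells (r = -0.70), neutrophils (-0.69), Langerhans cells (-0.61), macrophages (-0.57), immediate early genes (-0.55), hair follicle (-0.45) and dermal fibroblasts (-0.44), and was thus inverse to most lists other than that of differentiated keratinocytes. Il1r1 and Il1f9 had no called relation with any of the 10 lists.

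**Figure D5:**
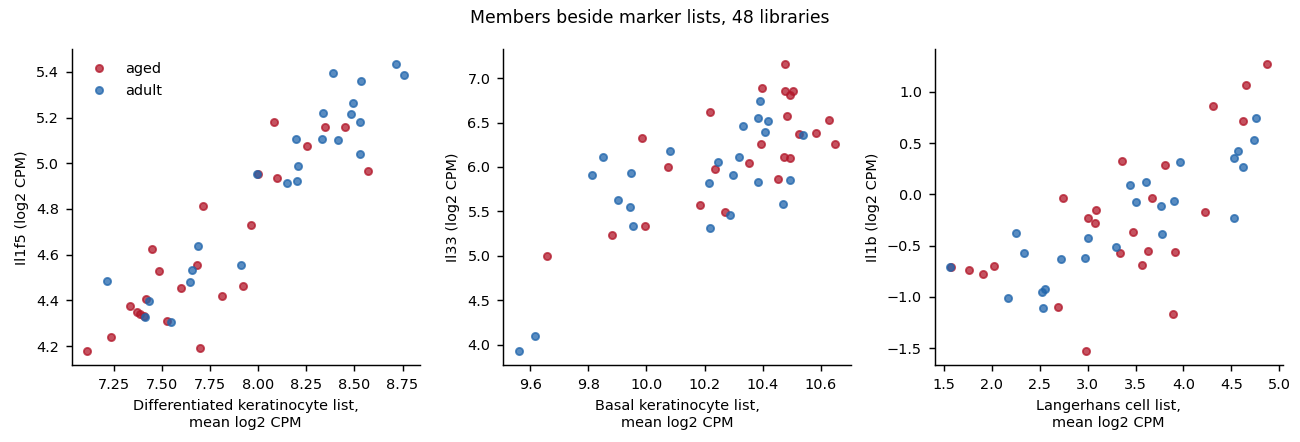
Log2 CPM of Il1f5, Il33 and Il1b against the mean log2 CPM of a marker list, with 1 point per library, aged in red and adult in blue. Each member rises with its list in both ages, and adult ZT12 replicates 3 and 4 are the lowest points for Il33.

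Some markers of these lists themselves differed with age. Of 10 differentiated keratinocyte markers 1 was higher and 5 were lower in aged over all times, where 17.0% of all genes were higher and 16.2% lower. At ZT20, 6 were lower, against 10.5% of all genes, with a list median of -0.82, the time at which Il1rn and Il1f5 were lowest relative to adult. The summed level of the list at ZT20 ran from 7817 to 8640 CPM in aged libraries and from 10478 to 15878 CPM in adult libraries. At the other times no marker of the list was called. The list median there was -0.09 at ZT0, -0.08 at ZT4, -0.64 at ZT8, -0.35 at ZT12 and 0.25 at ZT16. At ZT16 the values of Il1rn (-0.22) and Il1f5 (-0.17), neither called, thus had the opposite sign to the list. Of 7 basal markers 2 were higher in aged, against 17.0% of all genes, Krt14 (log2 fold change 0.31, SE 0.10) and Trp63 (0.18, SE 0.04), the direction of Il33. The other basal markers were not called, and Krt15 had the opposite sign (-0.11, SE 0.07). The share of basal markers called in either direction was not above the 33.1% of all genes. The basal list mean was 9.56 and 9.62 log2 CPM in adult ZT12 replicates 3 and 4, the lowest of all libraries, against 10.49 and 10.47 in adult ZT12 replicates 1 and 2. Their part in the age differences of the members was not tested.

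Of the other lists, hair follicle markers were lower in aged in 6 of 8 cases, against 16.2% of all genes. Immediate early genes, which rise during tissue dissociation, were higher in 7 and lower in 2 of 10, against 17.0% and 16.2% of all genes. Of 10 Langerhans cell markers 1 was lower and 0 higher, and their summed level ran from 53.3 to 470 CPM in aged libraries and from 65.6 to 480 CPM in adult libraries. Epidermal T cell markers changed in 0 of 8 cases, macrophage markers rose in 1 of 7 tested, dermal fibroblast markers rose in 1 of 8, endothelial markers changed in 0 of 3 tested, and 0 of 5 mast cell markers passed the filter. Neutrophil markers rose in 3 of 5 tested, against 17.0% of all genes. Almost all of their summed level was Cxcr2 (69.3 to 134 CPM over all libraries), while the neutrophil markers Ly6g and Retnlg had medians of 0 CPM in both ages. The label epidermis was checked on keratins of basal cells (Krt5, Krt14) and differentiated cells (Krt1, Krt10), whose medians lay between 1211 and 4279 CPM in both ages.

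The other genes of these pathways were taken from lists made for this family. Of 7 further receptors and decoys 4 were higher and 0 lower in aged, against 17.0% higher and 16.2% lower among all genes. Il1rap, the accessory chain shared by the IL-1, IL-33 and IL-36 receptors, rose by 0.26 (SE 0.05) on the log2 scale, with medians of 53.0 CPM in aged and 46.1 CPM in adult libraries. The IL-18 binding protein gene Il18bp rose by 0.34 (SE 0.08), the inhibitory receptor gene Sigirr by 0.28 (SE 0.08) and the IL-33 receptor gene Il1rl1 by 0.22 (SE 0.07). The IL-36 receptor gene Il1rl2 had 66.9 CPM in aged and 69.9 CPM in adult libraries by median and was not called (-0.04, SE 0.03). Of the remaining ligands Il18 rose by 0.78 (SE 0.12) and Il1f10 was not called (-0.13, SE 0.13).

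Of 16 genes of receptor signalling 3 were higher and 2 lower, a share called near the 33.1% of all genes. The ubiquitin ligase gene Peli2 rose by 0.31 (SE 0.07), Myd88 by 0.13 (SE 0.05) and Irak1 by 0.07 (SE 0.02), and Tab2, an adaptor of the kinase TAK1, fell by 0.13 (SE 0.03). Of 13 tested genes that process or release IL-1 family cytokines 4 were higher and 3 lower, against 17.0% higher and 16.2% lower among all genes. Casp1, which cleaves the IL-1 beta and IL-18 precursors, rose by 0.80 (SE 0.05), with medians of 37.6 CPM in aged and 22.0 CPM in adult libraries. Casp4 rose by 0.75 (SE 0.05) and Aim2 by 0.23 (SE 0.05), while the calpain gene Capn1 fell by 0.13 (SE 0.04).

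Genes that keratinocytes are known to induce in response to IL-1 and IL-36 were higher in 8 and lower in 0 of 18 cases tested, with a median log2 fold change of 0.37, against 17.0% higher, 16.2% lower and a median of 0.01 among all genes. At ZT20, 5 were higher, against 9.54% of all genes. Zc3h12a, an RNase gene that restrains cytokine transcripts, rose by 0.50 (SE 0.08), and Nfkbiz, a nuclear cofactor of NF-kB needed for the IL-36 response, rose by 0.32 (SE 0.08), with medians of 306 CPM in aged and 224 CPM in adult libraries. The chemokine gene Ccl20 rose by 0.67 (SE 0.17) and the cytokine gene Il23a by 0.64 (SE 0.18), at medians of 0.784 and 0.682 CPM in aged and 0.444 and 0.409 CPM in adult libraries. The neutrophil chemokine gene Cxcl1 was not called (0.16, SE 0.21), nor were the alarmin genes S100a8 (-0.30, SE 0.23) and S100a9 (-0.50, SE 0.26). Another 10 of the 28 genes listed, Saa1 and Lcn2 among them, did not pass the filter on low counts. This list and the immediate early list share no gene, but only by how the lists were chosen, which does not set their genes apart. Of the immediate early list 7 of 10 genes were higher and 2 lower in aged over all times (17.0% and 16.2% of all genes). At ZT20, 5 were higher and 2 lower (9.54% and 10.5% of all genes). The part of tissue dissociation was not tested for either list.

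For each member the 3 genes with the most similar profile over all 48 libraries were taken by Pearson r of log2 CPM, with no test. Il1f5 was closest to Sdr9c7 (r = 0.93), Fam89a (0.93) and Cdsn (0.92). Il33 was closest to Ankrd29 (0.89), Slc25a24 (0.89) and Sema3c (0.88), and Il1r2 to Paics (0.88), Lamb3 (0.88) and Cdh3 (0.88). Il1rn was closest to Wnt3 (0.85), Calm2 (0.85) and Snx3 (0.83). Il1r1 was closest to Syne2 (0.81), the clock gene Npas2 (0.81) and Atp1b1 (0.81). Il1b was closest to Nfkbid (0.78), Id3 (0.78) and Hap1 (0.77), and Il1f8 to Anxa9 (0.77), Csta1 (0.74) and Aqp9 (0.74). The remaining members had weaker neighbours, led by Tmprss11f (0.64) for Il1f6, Vasn (0.63) for Il1f9 and Snx29 (0.60) for Il1a. Group means were not removed here, so the libraries share age and time of day as well as their mixture of cells.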

How the data were processed

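The authors deposited raw counts (whole numbers, not normalized) for 24996 Entrez identifiers in 48 libraries. Total RNA was extracted from epidermal cell pellets and libraries were made with a stranded kit after removal of ribosomal RNA, per the labels' protocols. Trim Galore, STAR 2.7.10a, featureCounts and the genome mm10 (GRCm38) are named in the submitters' processing notes, while no strand setting or annotation is given in the sources. Symbols and positions came from RefSeq GRCm38.p6, which named 23476 identifiers (the rest held 3.66% of counts), and overlapping genes from GENCODE M21.

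Library totals ran from 40761084 to 49229498 counts (median 45299729), which sets the counting error of the low members, and no pair of replicates agreed within sampling noise (72 pairs). Counts were fitted with edgeR 4.0.16 in R 4.3.3, with TMM scaling (factors 0.877 to 1.1) and a filter at a minimum count of 10 and total of 15, which left 18044 genes. Robust quasi-likelihood fits used 1 mean per group (36 residual degrees of freedom) or a 24 h cosine per age (42). P-values are two-sided, adjusted by Benjamini-Hochberg over 18044 genes and called under 0.05. SEs were derived from the F statistic. CPM are counts scaled to library size times the TMM factor. Log2 CPM used a prior count of 2.

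Alternatives were DESeq2 1.42.0, its size factors in edgeR, limma 3.58.1, no filter, at least 1 CPM in 24 libraries, a threshold of 0.01, the replicate number as a block, fits without ZT20 or without aged ZT20 replicates 1 and 2, and each library left out. Leaving out adult ZT12 replicates 3 and 4, a prior count of 0.5 for the relations with marker lists, and leaving libraries out of the correlations were chosen after seeing the data. The fits were checked on simulated data. The members, the 5 pathway lists, the 11 marker lists and the rule for naming genes (all members, up to 4 called genes per pathway list by p, 3 most similar genes per member) were chosen with earlier results of these data known. Genes named beyond that rule (Il1f10, Il1rl2, Cxcl1, S100a8, S100a9, Saa1, Lcn2, and markers) were added after their values were seen.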

Additional observations from a re-analysis of the deposited data

Results flagged for a closer look

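Among 120 groups of 4 libraries (10 members in 12 groups), 5 held a library set apart from the other 3 by Dixon's test at the 95% level. Chance flags about 1 in 20 such groups, so this number is no more than chance gives. Il1rn had 98.5 CPM in adult ZT0 replicate 2, above the other 3 libraries of its group (70.1 to 73.6 CPM). Il1r1 had 43.6 CPM in adult ZT0 replicate 3, below the others (48.9 to 50 CPM). Il1f9 had 9.27 CPM in the same library, below the others (9.39 to 9.40 CPM), a gap that is large only against a very tight group. Il1f9 had 12.2 CPM in adult ZT8 replicate 1, above the others (9.98 to 10.2 CPM). Il1f6 had 0.140 CPM in aged ZT0 replicate 1, above the others (0.0667 to 0.0698 CPM), which is 6 counts against 3 in each.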

How the results depend on the processing

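The 4 age calls (Il1rn, Il1f5, Il1f8 and Il33) held in edgeR, DESeq2 and limma, without a filter, with aged ZT20 replicates 1 and 2 left out, and with each library left out, where the count ran from 4 to 5. With at least 1 CPM in 24 libraries Il1b, Il1f6 and Il1f8 were not tested. Without ZT20 the count was 1 (Il1f8), with Il1rn at -0.12, Il1f5 at -0.22 and Il33 at 0.34 no longer called and with Il1b at -0.019 and Il1r2 at -0.066 reversed. At a threshold of 0.01 it was 2 (Il1f5 and Il1f8). Without adult ZT12 replicates 3 and 4 the age effect of Il33 was 0.23 and not called, those of Il1b (-0.012) and Il1r2 (-0.016) reversed, and 2 members were called at ZT16 (Il1r1 and Il1r2), as in DESeq2. Without aged ZT20 replicates 1 and 2 the count at ZT20 was 0, against 3. The cause was not tested.

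DESeq2 called 1 member for age by time (Il1r2), against 0 in edgeR. With each library left out the counts ran from 0 to 1 for age by time (1 without aged ZT16 replicate 4), 0 to 1 at ZT12 (1 without adult ZT12 replicate 1), 0 to 2 at ZT16 and 2 to 4 at ZT20, and were 0 at ZT0, ZT4 and ZT8, 3 for adult rhythm, 2 for aged rhythm and 0 for their difference. The age effect of Il1b ran from -0.012 to 0.13 (reversed without aged ZT8 replicate 3 or aged ZT12 replicate 1) and that of Il1f9 from -0.0034 to 0.046 (reversed without aged ZT12 replicate 4). The age effect of Il1r1 was called without aged ZT12 replicate 3 (adjusted p = 0.0277, edgeR). Correlations called ran from 3 to 8 among members and from 30 to 41 with marker lists (34 with a prior count of 0.5).

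Replicate numbers did not pair the libraries. Deviations of same-numbered libraries had a mean r of -0.012 over 3000 genes, 12 of 24 pairs at the same time were over 0.1, and 4 of 48 libraries were closest to their own number. With the number as a block, 4 members were called for age and 2 at ZT20, where Il1r2 was lost (0.70, adjusted p = 0.0570, edgeR), as it was without a filter (0.71, adjusted p = 0.0745, edgeR). The count of low members, at most 16 for Il1f6 and 66 for Il1f8 per library, limits what can be said of them.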
